A study of Mus musculus with 2 samples.

Results

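The miR-34 and miR-449 genes form a family of 6 microRNA (miRNA) genes in the mouse, Mir34a, Mir34b, Mir34c, Mir449a, Mir449b and Mir449c. They were taken by Ensembl identifier and symbol, whatever their counts, from the 1973 miRNA genes counted by small RNA sequencing. There were 2 libraries in a single group, each made from 1 neural tube of a B6NCrl mouse at postnatal day 0. The labels name the animals as pup 2 and pup 1 of 1 dam and give no sex. With 1 group and no treatment, the values describe the level of each gene in this tissue and the difference between the littermates.

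A miRNA is cut from a hairpin precursor, and its seed, bases 2 to 8, pairs with target transcripts. The miR-34 and miR-449 miRNAs are known for their part in making multiciliated cells, the cells with many motile cilia that line the airways, the oviduct, the ependyma of the brain and the choroid plexus. There they repress Ccp110, a centriolar protein that blocks the growth of cilia, and, in frog and human airway cells, Notch pathway genes that keep cells from this fate. Mir34a is also a direct target of the p53 tumour suppressor, and mice that lack the whole family have defects of ciliated epithelia and of fertility.

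The mature sequences (RefSeq, GRCm38.p6, which is the mm10 build) are given for 5 of the 6 genes because the seed is what makes these genes 1 family. They are written 5′ to 3′ with the seed in capitals.
miR-34a-5p: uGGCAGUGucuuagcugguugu
miR-34b-5p: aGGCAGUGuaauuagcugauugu
miR-449a-5p: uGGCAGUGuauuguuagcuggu
miR-449c-5p: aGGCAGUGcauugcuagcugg
miR-34a-3p: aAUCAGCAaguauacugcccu
miR-34b-3p: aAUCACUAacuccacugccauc
miR-34c-3p: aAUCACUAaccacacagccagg
miR-449a-3p: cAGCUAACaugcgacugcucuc
miR-449c-3p: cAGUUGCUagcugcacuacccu
miR-34c-5p and the arms of Mir449b are named without sequence.

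The 4 arms on the 5′ side shared the seed GGCAGUG, whose complement in a target is CACUGCC. Among 1738 mouse mature sequences no gene outside the family carried this seed. The arms on the 3′ side did not share 1 seed. Those of Mir34b and Mir34c both had AUCACUA and matched at 17 of 22 bases, whereas the other 3 each had a seed found in no other of the mature sequences. The whole 5′ arms were compared base by base from the 5′ end without gaps, so a stretch that is shifted counts as mismatches. By this count miR-449a-5p and miR-449c-5p matched at 18 of 21 bases and miR-34a-5p and miR-449a-5p at 15 of 22. The arms miR-34b-5p and miR-449a-5p matched at 10 of 22.

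The counts are per precursor gene, so the reads of both arms of a hairpin are summed. The hairpins of a miR-34 and a miR-449 gene are shown with their mature arms in capitals, to mark which stretches such a count covers.
Mir34a: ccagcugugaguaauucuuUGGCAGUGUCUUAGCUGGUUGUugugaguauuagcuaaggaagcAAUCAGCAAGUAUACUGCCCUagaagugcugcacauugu
Mir449a: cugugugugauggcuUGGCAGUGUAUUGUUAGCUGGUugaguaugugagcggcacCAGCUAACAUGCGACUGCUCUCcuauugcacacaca
The authors' tables set apart the reads that fitted several places in the genome, so identical stretches would lower a gene's count. Among the hairpins searched, no exact stretch of a mature length was shared. Against 1004 other hairpins, the longest stretch common to Mir449a and another gene was 14 bases (with Mir679), and for Mir34a, Mir34b, Mir34c and Mir449c it was 11 bases. Between 2 family members it was at most 11 bases. Mir449b, the rest of the genome and stretches with mismatches were not searched, so a loss of reads to other places was not tested.

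The family lies at 3 loci of the mm10 build. Mir34a is at chr4:150068454-150068555 on the plus strand, where its last bases overlap an exon of Gm37795, a provisional transcript. Mir34b (chr9:51103562-51103645) and Mir34c (chr9:51103034-51103110) are 451 bases apart on the minus strand, inside an intron of Btg4, which is read from the opposite strand. Mir449c (chr13:113035983-113036091), Mir449b (chr13:113037419-113037498) and Mir449a (chr13:113037534-113037624) follow each other on the plus strand in an intron of Cdc20b, a gene of the same strand and of multiciliated cells. The 6 genes had 0 counts on the strand opposite to their own in both pups.

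**Figure D1:**
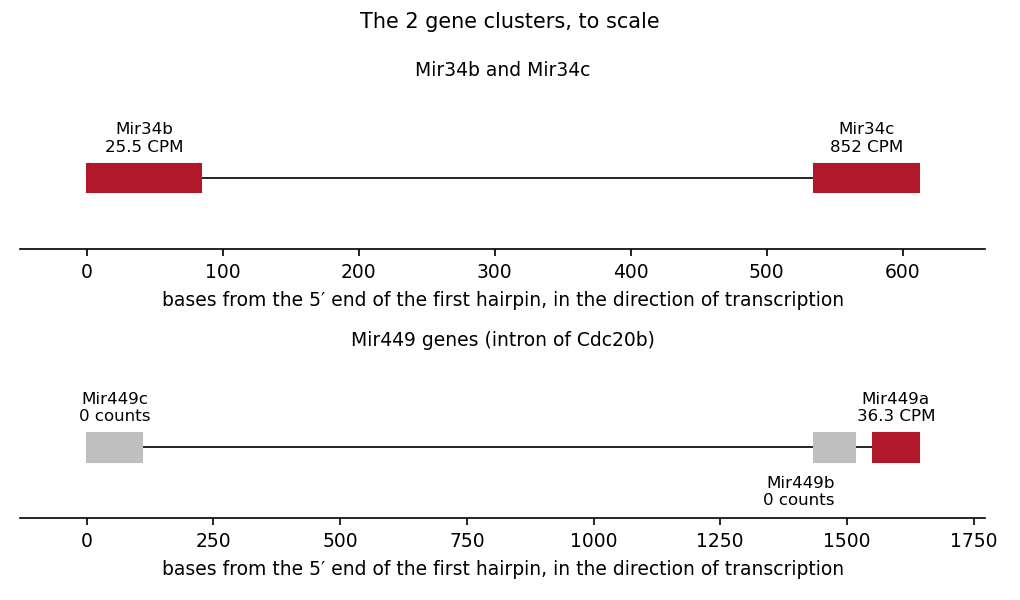
The Mir34b and Mir34c pair and the 3 Mir449 genes, drawn to scale along the direction of transcription, with the x axis in bases from the 5′ end of the first hairpin. Boxes are annotated hairpins with the mean own-strand CPM over both pups (red) or 0 counts (grey). In each cluster 1 gene carries most or all of the counted reads: Mir34c with 852 CPM and Mir449a with 36.3 CPM.

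Depth set what could be seen of the lower genes. The own-strand totals were 3660693 counts in pup 2 and 3216453 counts in pup 1, and levels are given as CPM, counts scaled to 1000000 own-strand counts of the library. A further 35.4% of the reads of pup 2 and 35.7% of those of pup 1 fitted several places and were counted to no gene. A gene was called detected where each pup had 10 counts or more, which held for 352 (17.8%) of the 1973 genes, and 1293 (65.5%) had no count in either pup. In the family 4 members were detected, Mir34a, Mir34b, Mir34c and Mir449a, and Mir449b and Mir449c had no count. Genes of trunk position and of neurons were read beside the family. Mir10b and Mir10a, which lie among the Hox genes that pattern the trunk, reached 180672 and 135956 CPM. They mark position and do not by themselves show neural tissue. Neuronal Mir137 reached 16076 CPM. Some other neural genes were low: Mir124a-1, Mir124a-2 and Mir124a-3 stood at 9.94, 1.03 and 2.45 CPM and Mir9-2 at 1.42 CPM. Mir9-3, another copy of Mir9, stood at 459 CPM. The Mir124a and Mir9 genes each have several copies that make the same miRNA, and reads that fit several copies were not counted, so these values are not levels of the mature miRNAs.

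Mir34c was the highest member, with 3399 counts in pup 2 and 2495 counts in pup 1. This is 929 CPM in pup 2 and 776 CPM in pup 1, a mean of 852 CPM ± 108 (SD, n = 2). Mir34a followed with 2406 counts in pup 2 and 2057 in pup 1. Its level was nearly the same in both pups, 657 CPM in pup 2 and 640 CPM in pup 1, with a mean of 648 CPM ± 12.5 (SD, n = 2). These 2 genes, from different chromosomes, held nearly all reads of the family.

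Mir449a and Mir34b stood more than 10-fold below. Mir449a had 144 counts in pup 2 and 107 counts in pup 1, or 39.3 and 33.3 CPM, with a mean of 36.3 CPM ± 4.29 (SD, n = 2). Mir34b had 92 counts in pup 2 and 83 in pup 1, or 25.1 and 25.8 CPM, with a mean of 25.5 CPM ± 0.476 (SD, n = 2). The exact (Clopper-Pearson) 95% intervals of these counts were wide: 33.2 to 46.3 CPM in pup 2 and 27.3 to 40.2 CPM in pup 1 for Mir449a, and 20.3 to 30.8 CPM in pup 2 and 20.6 to 32.0 CPM in pup 1 for Mir34b. Intervals and limits cover counting error only, since no molecular identifiers were stated.

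Mir449b and Mir449c had 0 counts in both pups. A count of 0 was taken to allow up to 3 counts, for reads placed uniquely on the gene's strand. That is up to 0.820 CPM in pup 2 and 0.933 CPM in pup 1. The exact 95% intervals used for the other genes would reach higher, to 1.01 CPM in pup 2 and 1.15 CPM in pup 1. The count of Mir449a, 35 bases downstream of Mir449b, was 48-fold the limit of 3 counts in pup 2 and 35.7-fold that limit in pup 1. The counting error of Mir449a itself is not in these folds. All 144 counts of the Mir449 genes in pup 2 and all 107 in pup 1 were those of Mir449a. At this depth the exact 95% intervals of that share began at 97.5% in pup 2 and 96.6% in pup 1.

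**Figure D2:**
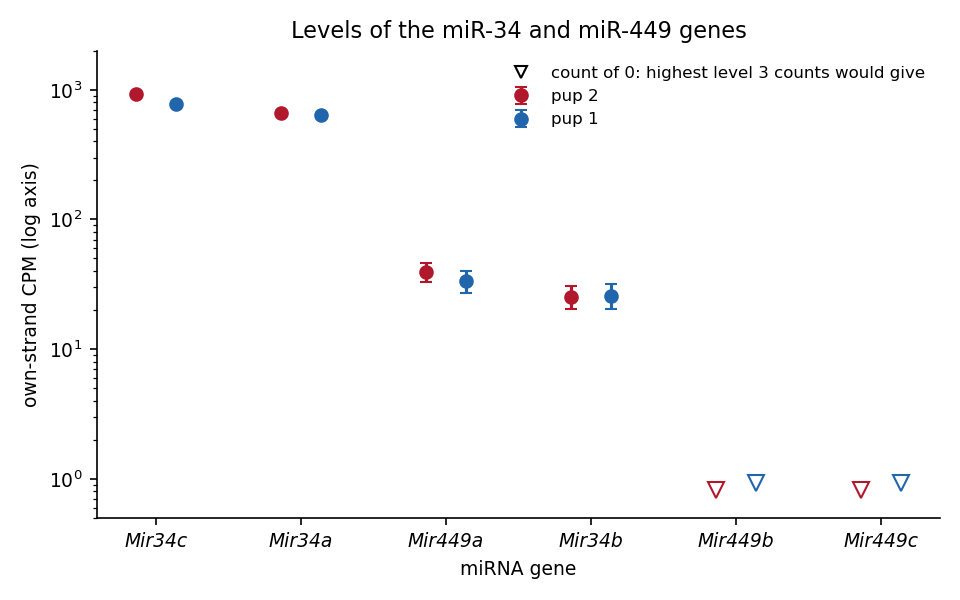
Own-strand CPM (log axis) of the 6 genes in pup 2 (red) and pup 1 (blue). Points are single libraries with exact 95% counting intervals. Open triangles mark the limit of 3 counts set for a count of 0, 0.820 CPM in pup 2 and 0.933 CPM in pup 1. This limit is not the end of an exact interval. Mir34c and Mir34a lie between 640 and 929 CPM, and Mir449a and Mir34b between 25.1 and 39.3 CPM.

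The order of the 4 detected genes by mean CPM was Mir34c, Mir34a, Mir449a and Mir34b in each pup. Neighbours in this order were called apart where their mean log2(CPM + 1) differed by more than the 95% normal limit of the SD between the pups, pooled over detected genes of like abundance; 92.0% of all pairs of detected genes were apart by this rule. Mir34a lay 17.9-fold above Mir449a (log2 difference in level 4.13), beyond the limit of 0.44. Mir34c lay 1.31-fold above Mir34a (0.39), just within the limit of 0.41. Mir449a lay 1.43-fold above Mir34b (0.49), within the limit of 0.59.

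The calls of both closer pairs depend on the settings. With the classes of abundance redrawn over genes with at least 1 count in both pups, Mir34c and Mir34a were apart, and so were Mir449a and Mir34b. Small RNA reads cover the mature arms and not the whole gene, so CPM was not divided by length. Divided by the annotated length of the hairpin, Mir34c stood at 11.1 CPM per base, Mir34a at 6.36, Mir449a at 0.399 and Mir34b at 0.303. The order was the same, but the log2 difference between Mir34c and Mir34a became 0.79, beyond the limit, while that between Mir449a and Mir34b became 0.37 and stayed within it. Differences in capture between sequences, which both libraries share, are in no SD given here.

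Mir34b and Mir34c, 451 bases apart, were counted very unequally. Their 5′ arms were not compared with each other and no aligner is named, so reads lost or misplaced between these genes were not tested. Mir34c lay 36.9-fold above Mir34b in pup 2 and 30.1-fold in pup 1, and this log2 difference in level of 5.00 was beyond the limit of 0.57. Of the counts of this pair, Mir34c held 97.4% in pup 2 (exact 95% interval 96.8 to 97.9%) and 96.8% in pup 1 (96.0 to 97.4%). The mean share was 97.1% ± 0.413 (SD, n = 2), and the intervals of the pups overlapped.

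Together the 6 genes held 6041 counts in pup 2 and 4742 in pup 1. This was 0.165% of the own-strand counts in pup 2 (exact 95% interval 0.161 to 0.169%) and 0.147% in pup 1 (0.143 to 0.152%), a mean of 0.156% ± 0.012 (SD, n = 2). The intervals of the pups did not overlap. Of the family's counts, Mir34c held 56.3% in pup 2 (55.0 to 57.5%) and 52.6% in pup 1 (51.2 to 54.0%). Mir34a held 39.8% in pup 2 (38.6 to 41.1%) and 43.4% in pup 1 (42.0 to 44.8%). For these 2 genes the intervals of the pups did not overlap either. Their shares are parts of 1 total, so a higher share of Mir34c lowers that of Mir34a. The level of Mir34a itself was 657 CPM in pup 2 and 640 CPM in pup 1. Mir449a held 2.38% in pup 2 and 2.26% in pup 1, so the miR-34 genes made up 97.7% ± 0.090 of the family (SD, n = 2). The intervals cover counting error only. By a test of counting error, given below, 40.9% of 413 tested genes were called between the pups.

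Among the detected miRNA genes the 4 members fell into an upper and a lower pair. Mir34c ranked 104 by mean CPM, above 70.5% of the detected genes, and Mir34a ranked 112, above 68.2%. Mir449a ranked 255 and Mir34b 268, above 27.6% and 23.9% of them. No member reached 1000 CPM, a level that 95 genes reached. Directly above Mir34c stood Mir383 (877 CPM ± 0.926), Mir532 (872 CPM ± 38.7) and neuronal Mir128-2 (868 CPM ± 107), and directly below it Mir188 (820 CPM ± 18.1), Mir204 (810 CPM ± 75.7) and Mir15b (723 CPM ± 66.3; SD, n = 2 each). None of these 6 was apart from Mir34c by the pooled SD, which follows largely from choosing them as nearest in rank. With 2 libraries no likeness of pattern between genes was computed.

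**Figure D3:**
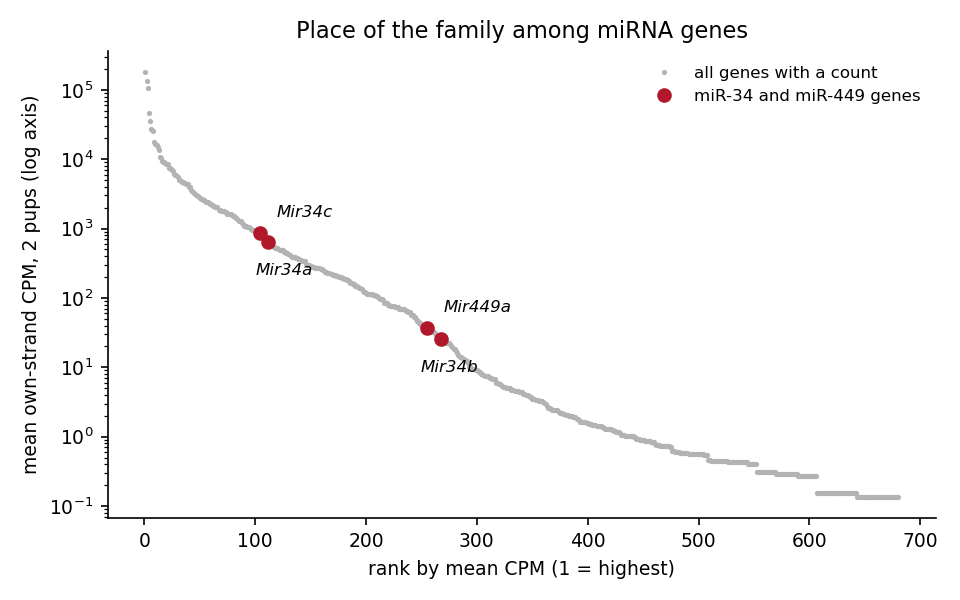
Mean own-strand CPM over both pups (log axis) against rank, for all genes with at least 1 count (grey), with the 4 counted family members in red. Mir34c (rank 104) and Mir34a (rank 112) sit close together, and Mir449a (255) and Mir34b (268) form a second, lower pair.

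The difference between the pups was then tested. For each of the 413 genes whose counts summed to 10 or more, an exact binomial test (two-sided) set the counts against the library totals, and p-values were adjusted over all 413 by the Benjamini-Hochberg method. The test compares 2 libraries and covers counting error only, and 40.9% of the tested genes were called (25.7% higher and 15.3% lower in pup 2). One of the 4 tested family members was called. Mir34c, with 929 CPM in pup 2 and 776 CPM in pup 1, was higher in pup 2 by a log2 ratio of 0.26, or 1.20-fold (adjusted p = 4.4e-11, exact binomial test). Of the 88 detected genes of its class of abundance, 24 had a larger difference between the pups in either direction.

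The other 3 members did not pass the exact binomial test. Mir449a, with 144 counts in pup 2 and 107 in pup 1, had a log2 ratio of 0.24 (adjusted p = 0.34), similar in size to that of Mir34c but on far fewer reads. Mir34a had a log2 ratio of 0.04 (adjusted p = 0.52); with TMM or DESeq2 scaling the ratio was -0.002. Mir34b had a log2 ratio of -0.04 (adjusted p = 0.93). The median of the 4 was 0.14, against 0.04 over all tested genes. Mir34c and Mir34b, neighbours on chromosome 9, thus gave ratios of opposite sign, although the interval of Mir34b is wide and the difference between the ratios was not tested.

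**Figure D4:**
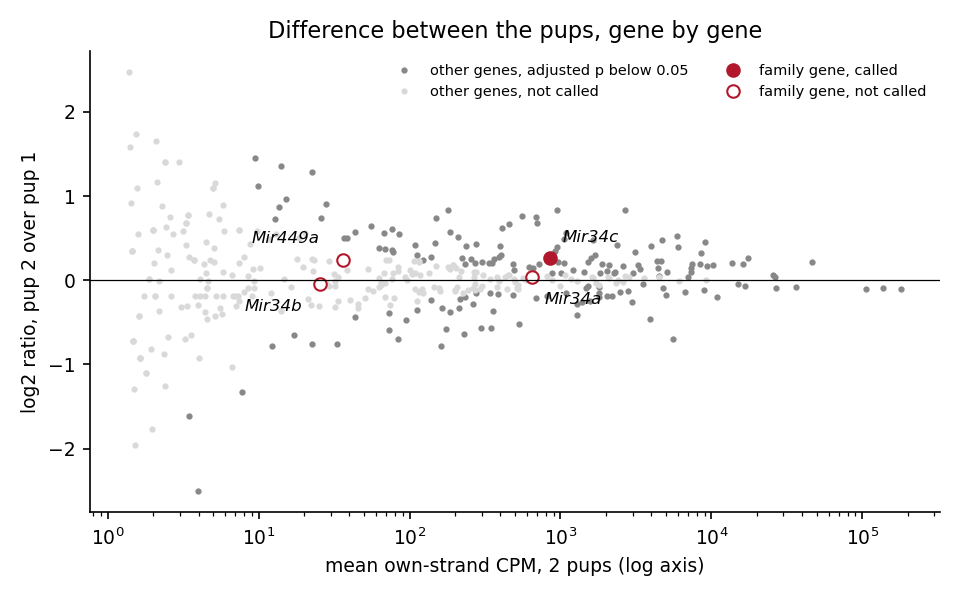
Log2 ratio of pup 2 over pup 1 (y axis) against mean own-strand CPM (x axis, log) for the 413 tested genes. Grey points are other genes, dark where the adjusted p was below 0.05, and red circles are family members, filled where called. Only Mir34c (0.26) of the 4 members is called, and it lies within the cloud of genes of like abundance.

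The level of the family was set beside lists of miRNA genes for cells, body position and pathways. Among these were skeletal muscle and hepatocytes, which are not cells of the neural tube. The summed level of the family was 1650 CPM in pup 2 and 1474 CPM in pup 1 (mean 1562 CPM ± 124; SD, n = 2). The 7 genes of the choroid plexus list, an epithelium with ciliated cells, summed to 1255 CPM in pup 2 and 1375 CPM in pup 1, with 6 detected. They were led by Mir204 (810 CPM) and by Mir1298 (300.3 CPM), which lies with other list members in the serotonin receptor gene Htr2c. In that list Mir204 was called lower in pup 2 (log2 ratio -0.19; adjusted p = 4.0e-06, exact binomial test) and no gene was called higher. The 10 measured genes of the p53-linked list, miRNA genes reported to respond to p53, summed to 14763 CPM in pup 2 and 14231 CPM in pup 1. Of these, 8 were detected, led by Mir143 (6977 CPM) and Mir107 (2797 CPM), and all 8 were tested: 4 were called higher and 1 was called lower in pup 2, against 40.9% called over all tested genes, and the median log2 ratio was 0.06.

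Other lists bore on what the tissue contained. The epithelial list summed to 538 CPM in pup 2 and 499 CPM in pup 1, with 5 of 7 genes detected, led by Mir203 (449 CPM) and Mir429 (25.0 CPM). The neuronal list summed to 24265 CPM in pup 2 and 21124 CPM in pup 1, led by Mir137 (16076 CPM) and Mir128-1 (3126 CPM), with 8 of 11 measured genes detected. Endothelial Mir126a stood at 26923 CPM, Mir206 of skeletal muscle at 85.6 CPM and Mir122 of hepatocytes at 84.2 CPM, while Mir1a-1, Mir133a-1 and Mir133a-2 of muscle had 0 counts. These 3 have near-identical copies whose shared reads were not counted, so their zeros do not show that muscle RNA was absent. Other genes with near-identical or closely similar copies, among them Mir128-1, Mir128-2, Mir10a, Mir10b and Mir107, can lose reads to places that fit equally well, so their counts are uncertain. The tables hold miRNA genes only, so no protein marker of ciliated cells was measured.

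The lists themselves were not tested between the pups, and their values are given beside those of the family. The log2 ratio of the summed levels was 0.16 for the family (1 of 4 tested genes called higher, 0 lower), 0.20 for the neuronal list (5 of 10 tested genes called higher, 0 lower), 0.11 for the epithelial list (1 of 6 higher, 0 lower) and 0.56 for the muscle list, which rests on Mir206. It was -0.13 for the choroid plexus list, -0.11 for the list of Hox position (0 of 5 higher, 5 lower), -0.10 for Mir126a and -0.70 for Mir122. Over all 413 tested genes 25.7% were called higher and 15.3% lower in pup 2. The part of these differences in the higher Mir34c count of pup 2 was not tested. In bulk tissue, fewer cells of a type and less RNA per cell cannot be told apart.

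**Figure D5:**
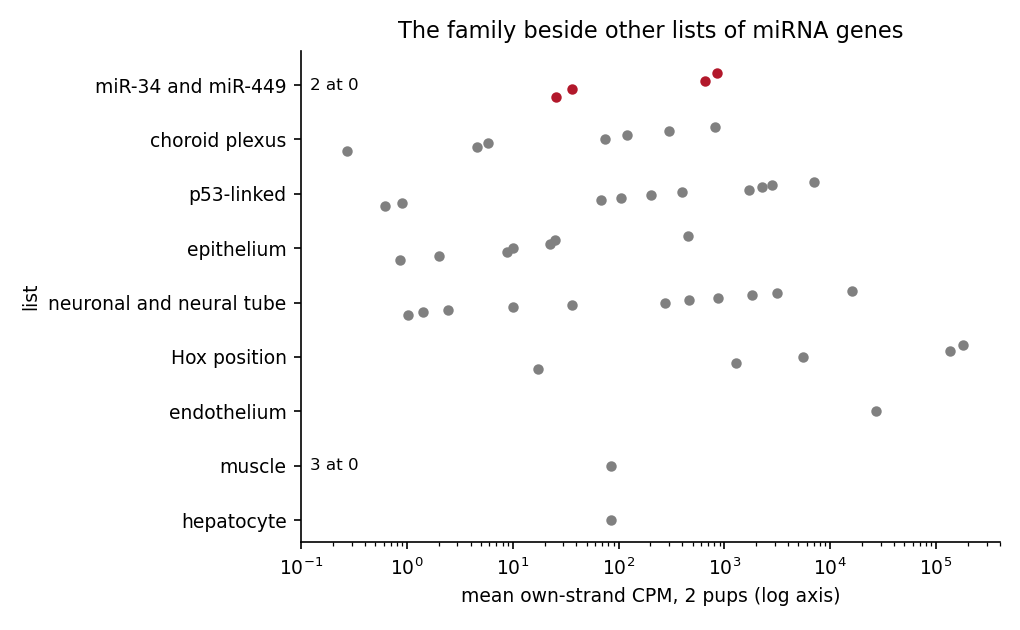
Mean own-strand CPM over both pups (log axis) of each measured gene of the family (red) and of 8 other lists (grey), 1 point per gene. Genes with 0 counts are given as a number at the left. The upper pair of family members lies near the highest choroid plexus gene, Mir204, and below Mir137, Mir10a and Mir10b.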

How the data were processed

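Small RNA libraries (RNA under 30 bases, per the labels) came from the neural tubes of 2 pups. As deposited, each table holds raw counts for every miRNA gene on either strand, the own strand and the opposite strand; the genome was mm10 with GENCODE M4 annotation, per the text deposited with the tables, and no aligner or counter is named (not given in the sources used here). Own-strand counts were scaled to their total without the read classes that name no gene. Those classes took 48.1% of the reads of pup 2 and 48.4% of those of pup 1. Opposite-strand counts took 1.13% and 1.08%. Symbols and positions came from GENCODE M21 of the same build, matched for 1894 of 1973 genes and all 6 members; 79 genes were not matched. Sequences came from RefSeq.

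Log2 ratios had 0.5 added to each count. SDs of log2(CPM + 1) were pooled within 4 classes of abundance; with 1 library a pup no spread within a pup exists. Both steps were tested on simulated data. Apart from planted differences, the simulated counts held counting error only, and the simulated spread was the same for all genes. This does not show how the binomial test behaves where libraries differ by more than counting error. Named genes are the 6 members, the 3 genes on each side of the highest member in rank, genes sharing a seed, and the 2 highest detected genes of each of the 8 lists. The members, lists and tests were chosen with earlier results of these data known. Alternatives were TMM and DESeq2 scaling, other minimums and pseudocounts, either-strand counts, another pooling of the SD, a total without the most abundant gene, and leaving out each pup; division by gene length was chosen after seeing the data. Tests ran in scipy 1.17.1 (Python 3.11.15, numpy 2.4.6, pandas 2.3.3), scaling in edgeR 4.0.16 and DESeq2 1.42.0 (R 4.3.3), figures in matplotlib 3.10.9.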

Additional observations from a re-analysis of the deposited data

How the results depend on the processing

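No paired analysis was possible because there is 1 group. Leaving out a pup ends the test between the pups, so it was run for levels and shares only. The family's share of counts ran from 0.147 to 0.165% with a pup left out and was 0.191% with a total that leaves out the most abundant gene, Mir10b, by construction of the smaller total. The number of neighbouring pairs apart, 1 of 3, became 3 when the SD was pooled over genes with at least 1 count in both pups, where the cause was not tested, and 2 when CPM was divided by gene length, by construction of the shorter Mir34c hairpin. The log2 ratio of Mir34a between the pups changed sign, to -0.0015 with TMM and -0.0019 with DESeq2 scaling, which each moved the median of all tested genes by -0.041. Mir34c was called under every scaling, minimum and strand tried, with log2 ratios of 0.22 to 0.26 and adjusted p of 3.0e-11 to 4.5e-08, and no other member was called. All tested genes called were 160 to 180, against 169. Depth limits Mir34b and Mir449a, on 83 to 144 counts, and the genes at 0.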
